A study of Mus musculus with 6 samples.

Results

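The genes described here are 7 genes of arginine metabolism, Arg1, Arg2, Nos2, Ass1, Asl, Slc7a2 and Odc1, picked by symbol from a table of 15487 genes, and all 7 were found in it and passed the filter on low values. RNA was sequenced from macrophages that flow cytometry had sorted out of implanted CT26 tumours, CT26 being a mouse colon carcinoma line. All samples carry the labels BALB/C for strain and wild type for genotype, so the groups differ in the tumour cells, which were labelled Sg-Con or Sg-C3 and are read here as carrying a control guide RNA or a guide RNA against complement C3. Tumours were taken on day 15, and each group holds 3 libraries, named by replicate in accession order. Replicate 3 of each group was titled in another style than the rest of its group. Its title began with CON (Sg-Con) or SGC3 (Sg-C3), and the other titles with TAM (Sg-Con) or C3KO (Sg-C3). This title style is the covariate named below, and the labels do not say what it marks. Nothing in the labels ties a library to an animal of its own, and the p-values therefore cover only the spread among these libraries, which could be technical. The guide acts in the tumour cells, so macrophage C3 RNA is no check of it, and the labels do not say whether the Sg-C3 line was 1 clone.

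Arginine sits at a fork in macrophages. Arginases split it into urea and ornithine, and ornithine feeds polyamines and proline, while the inducible nitric oxide synthase turns it into nitric oxide and citrulline. Citrulline can be built back into arginine by argininosuccinate synthase and argininosuccinate lyase. Arg1 is a classical marker gene of alternatively activated mouse macrophages and Nos2 of classically activated ones.

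The values are FPKM, reads scaled by gene length and by the reads mapped in the library, so levels of different genes can be set side by side. Every fold change given is Sg-C3 minus Sg-Con, taken on the log2(FPKM + 1) scale, with limma's standard error (SE), and a gene is called when its Benjamini-Hochberg adjusted p over all 11198 tested genes is below 0.05. The low values in the table imply 17.6 to 19.3 megareads mapped per library, and FPKM sums per library ran from 474579 to 487358. At that depth the lowest value of any of the 7 genes, 3.3 FPKM for Nos2, stands for about 63.0 reads per kilobase. The macrophage markers Adgre1, Csf1r, Cd68 and C1qa were present in every library. Because RNA was measured in bulk, fewer cells of a type and less RNA per cell cannot be told apart.

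Of the 7 genes 6 were called, 4 higher in Sg-C3 (Nos2, Ass1, Odc1 and Arg2) and 2 lower (Arg1 and Asl). Over all tested genes 44.4% were called, 12.7% higher and 31.7% lower, so a call by itself does not set these genes apart. The split depends on scaling: after median-ratio scaling 18.6% of tested genes were higher and 19.1% lower, and after quantile normalization 16.5% and 22.0%. The median log2 fold change was 1.08 over the 7 genes and -0.16 over all tested genes. Called changes of at least 1 on the log2 scale were found for Nos2, Ass1 and Odc1 upward, against 4.55% of tested genes, and for Arg1 downward, against 3.65%. The groups did not overlap in FPKM for 6 of the 7 genes, against 57.6% of tested genes.

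**Figure D1:**
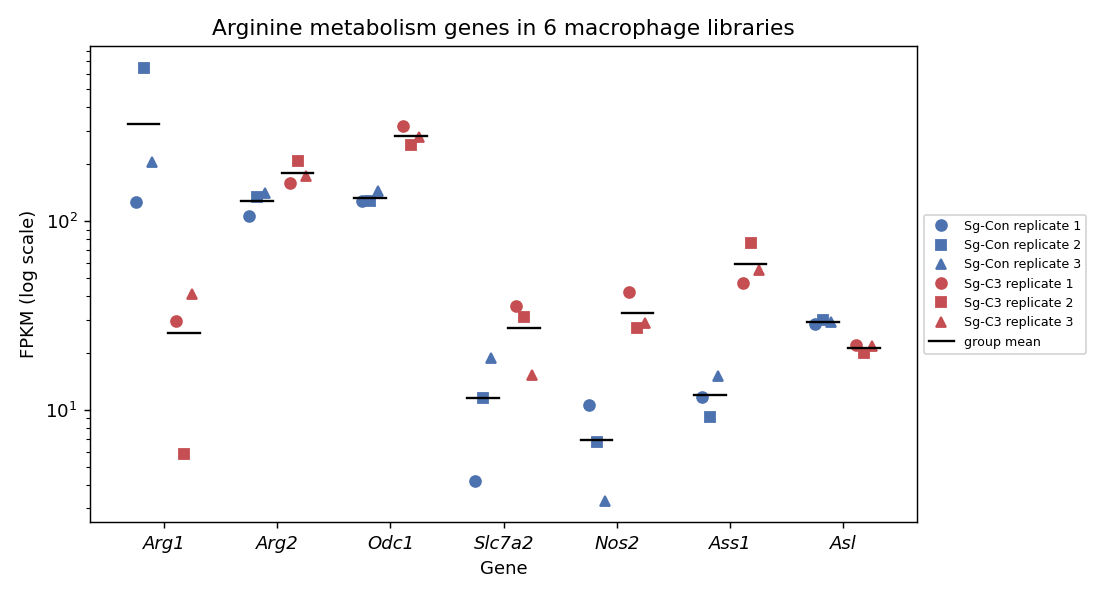
FPKM (log axis) of the 7 genes in the 6 libraries, Sg-Con in blue and Sg-C3 in red, with a marker shape for each replicate and a line at each group mean. Arg1 spreads most within a group, Asl least, and Slc7a2 is the gene whose groups overlap.

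Arg1, the cytosolic arginase, was the member with the largest difference. It stood at 126.13, 649.77 and 205.26 FPKM in the Sg-Con libraries and at 29.38, 5.86 and 41 FPKM in the Sg-C3 libraries. The groups did not overlap, and both were wide: the highest Sg-Con value was 5.15 times the lowest, and the highest Sg-C3 value 6.997 times the lowest. Arg1 fell from 327 ± 282 to 25.4 ± 17.9 FPKM (SD, n = 3; log2 fold change -3.64 with SE 0.79, adjusted p = 0.0109 by limma), the 5th lowest fold change of all tested genes. Without Sg-Con replicate 2 the log2 fold change was -2.97 (adjusted p = 0.0277), and without Sg-C3 replicate 2 it was -2.85 (adjusted p = 0.029). In Sg-Con, Arg1 lay above 98.3% of the genes in the table, and in Sg-C3 above 82.2%.

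Of 7 carcinoma markers, Krt8 and Cdh1 passed the filter, and both were lower in Sg-C3, as Arg1 was. Krt8 was at 0.35, 0.26 and 0.36 FPKM in Sg-C3, so it passed only through Sg-Con. The summed FPKM of all 7 was 16.3 to 29.95 in Sg-Con and 2.43 to 3.15 in Sg-C3. Most of the Sg-Con sum was Krt8, at 8.92, 21.86 and 12.15 FPKM. Krt8 and Cdh1 were highest in Sg-Con replicate 2. The other 5 markers (Epcam, Krt18, Krt19, Cldn4 and Cldn7) were too low to test, their groups overlapped, and Epcam, Krt19 and Cldn7 had their lowest Sg-Con value in replicate 2. Cldn4 was at 0 in at least 1 library. Monocyte markers differed gene by gene: Ly6c2 and Plac8 were higher, Ccr2 and Chil3 lower, and the summed level of 6 markers ran from 129 to 244 FPKM in Sg-Con and from 309 to 427 in Sg-C3. The part of these cells in the Arg1 values was not tested.

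Arg2, the mitochondrial arginase, went the other way by a small amount. Its values were 106.64, 133.77 and 140.34 FPKM in Sg-Con and 158.16, 208.75 and 173.04 in Sg-C3. Every Sg-C3 library lay above every Sg-Con library. Arg2 rose from 127 ± 17.9 to 180 ± 26.0 FPKM (log2 fold change 0.50 with SE 0.14, adjusted p = 0.0277 by limma). The call was lost after quantile normalization (adjusted p = 0.0655), with Sg-Con replicate 1 left out (0.072) and with Sg-C3 replicate 2 left out (0.0914).

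With opposite changes in the 2 arginase genes, their mix differed more than their sum. Arg1 and Arg2 together came to 233, 784 and 346 FPKM in Sg-Con and to 188, 215 and 214 FPKM in Sg-C3. Only the Sg-Con libraries varied widely in this sum, and their lowest stood just above the highest Sg-C3 library. Arg2 made up 45.8%, 17.1% and 40.6% of the summed arginase FPKM in Sg-Con and 84.3%, 97.3% and 80.8% in Sg-C3. The share was at most 45.8% in Sg-Con and at least 80.8% in Sg-C3. The means were 34.5% ± 15.3 and 87.5% ± 8.65 (SD, n = 3 per group), a difference of 53.0 percentage points with an exact two-sided permutation p = 0.10, the smallest that 3 against 3 libraries can give. Benjamini-Hochberg adjustment over the 2 such tests made here left it at 0.10.

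Nos2 encodes the inducible nitric oxide synthase, the enzyme at the other side of the fork. It was measured at 10.61, 6.71 and 3.3 FPKM in Sg-Con and at 41.9, 27.04 and 28.96 FPKM in Sg-C3. The lowest Sg-C3 library was well above the highest Sg-Con library, and Sg-Con replicate 3 was the lowest of all. Nos2 rose from 6.87 ± 3.66 to 32.6 ± 8.08 FPKM (log2 fold change 2.18 with SE 0.35, adjusted p = 0.00436 by limma), a 4.75-fold ratio of means. It lay above 55.9% of the genes in the table in Sg-Con and above 85.7% in Sg-C3. The other nitric oxide synthase genes, Nos1 and Nos3, were at 0.34 FPKM or less in every library and were not tested.

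**Figure D2:**
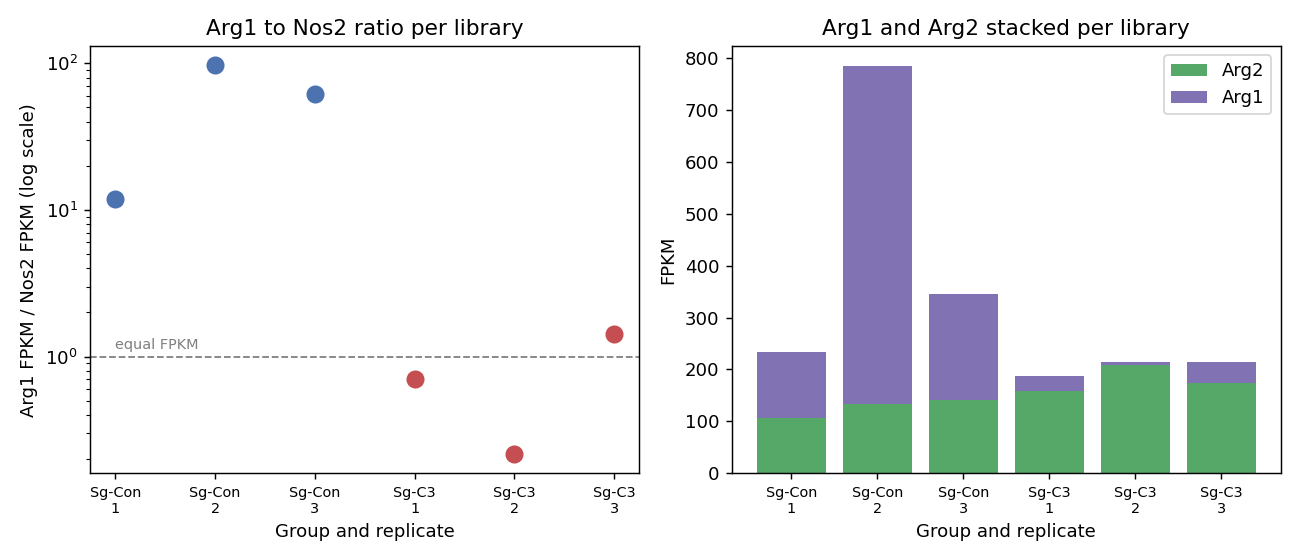
Left, Arg1 FPKM divided by Nos2 FPKM in each library on a log axis, with a dashed line where both genes have equal FPKM. Right, Arg2 (green) and Arg1 (purple) FPKM stacked per library, with Arg1 the larger part in the Sg-Con bars and the smaller part in the Sg-C3 bars.

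Arg1 exceeded Nos2 by 11.9, 96.8 and 62.2 times in the Sg-Con libraries. In Sg-C3 the ratio of Arg1 to Nos2 was 0.701, 0.217 and 1.42, so Nos2 had the higher FPKM in replicates 1 and 2 and Arg1 in replicate 3. On the log2 scale the ratio averaged 5.38 ± 1.595 in Sg-Con and -0.74 ± 1.37 in Sg-C3 (SD, n = 3 per group). The difference of -6.11 corresponds to a 69.3-fold lower ratio in Sg-C3, with an exact two-sided permutation p = 0.10, the smallest possible, and 0.10 after adjustment over the 2 tests. Leaving out 1 library at a time gave differences from -7.02, without Sg-Con replicate 1, to -5.38, without Sg-C3 replicate 2, with an exact permutation p of 0.20, again the smallest possible. Within a group the 2 genes were not mirror images: the Sg-Con library with the most Arg1 was replicate 2, and the one with the least Nos2 was replicate 3. With Arg2 added to Arg1, the arginase genes still exceeded Nos2 in every library, by 21.9, 117 and 105 times in Sg-Con and by 4.48, 7.94 and 7.39 times in Sg-C3.

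Ass1 and Asl encode the consecutive enzymes that rebuild arginine from citrulline, and they moved in opposite directions. Ass1, argininosuccinate synthase, joins citrulline to aspartate and is regarded as the limiting step of this cycle. Its values were 11.63, 9.13 and 15.14 FPKM in Sg-Con and 46.85, 76.32 and 54.67 FPKM in Sg-C3. The groups were far apart relative to their spread. Ass1 rose from 11.97 ± 3.02 to 59.3 ± 15.3 FPKM (log2 fold change 2.21 with SE 0.22, adjusted p = 0.0015 by limma), and the fold change ran only from 2.02 to 2.38 when each library was left out.

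Asl, argininosuccinate lyase, releases arginine from the product of Ass1. It was at 28.54, 29.99 and 29.15 FPKM in Sg-Con and at 21.96, 19.99 and 21.73 FPKM in Sg-C3. Asl had the narrowest groups of the 7 genes, with SDs of 0.728 and 1.08 FPKM, and they did not overlap. It fell from 29.2 to 21.2 FPKM (n = 3 per group; log2 fold change -0.44 with SE 0.08, adjusted p = 0.00699 by limma). Relative to the median of all tested genes the fold change was -0.28, and after median-ratio scaling it was -0.28 with adjusted p = 0.0292. The ratio of Ass1 to Asl FPKM was 0.407, 0.304 and 0.519 in Sg-Con and 2.13, 3.82 and 2.52 in Sg-C3, so the order of the 2 genes was exchanged between the groups in every library.

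Slc7a2 encodes CAT2, a cationic amino acid transporter that brings arginine into the cell. It stood at 4.2, 11.54 and 18.84 FPKM in Sg-Con and at 35.45, 30.84 and 15.28 FPKM in Sg-C3. Sg-C3 replicate 3 lay below Sg-Con replicate 3, so the groups overlapped. The log2 fold change was 1.29 (SE 0.50, 95% interval 0.11 to 2.47), and Slc7a2 did not pass (limma adjusted p = 0.0723). Without Sg-Con replicate 1 the log2 fold change was 0.76 (adjusted p = 0.148), and without Sg-Con replicate 3 it was 1.72 (adjusted p = 0.0299). It also passed with Sg-C3 replicate 3 left out (1.64, adjusted p = 0.041), while leaving out replicate 2 of Sg-Con or either of the other Sg-C3 libraries gave adjusted p of 0.113 to 0.197. The table has 1 row for the gene, so its isoforms, which differ in affinity for arginine, could not be separated.

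Odc1 encodes ornithine decarboxylase, which turns ornithine into putrescine, the first polyamine. Its values were 126.92, 127.85 and 144.38 FPKM in Sg-Con and 319.43, 253.83 and 277.34 FPKM in Sg-C3. Each group was narrow and the gap between them was wide. Odc1 rose 2.13-fold from 133 ± 9.82 to 284 ± 33.2 FPKM (log2 fold change 1.08 with SE 0.11, adjusted p = 0.00156 by limma), with fold changes of 0.99 to 1.16 when each library was left out. Odc1, whose enzyme uses the ornithine that arginases make, thus changed in the other direction than Arg1 and in the same direction as Arg2. Near-identical copies of Odc1 elsewhere in the genome could share reads with it.

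**Figure D3:**
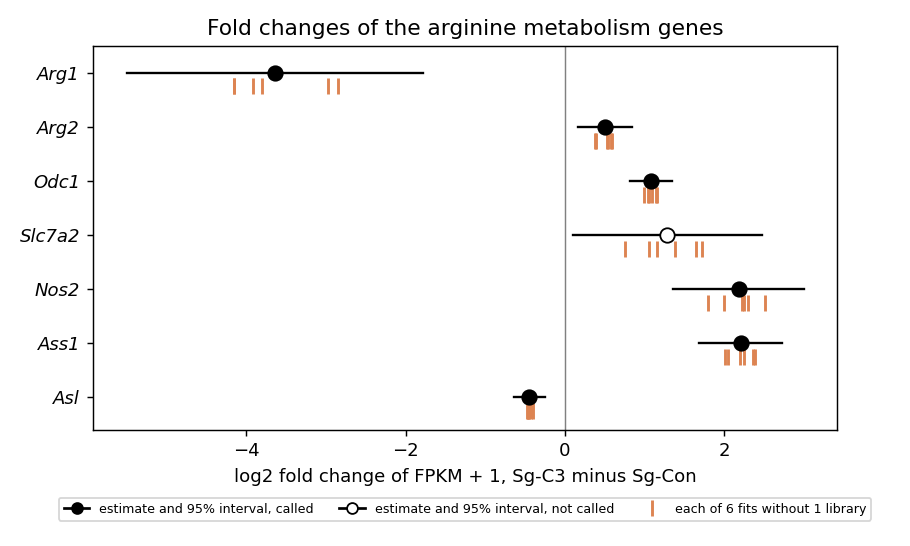
log2 fold changes of FPKM + 1 (Sg-C3 minus Sg-Con) with limma 95% intervals, filled where the gene was called, and orange ticks for the 6 fits that each leave out 1 library. Arg1 has the widest interval, from -5.51 to -1.78, and the ticks of all 7 genes stay on the side of 0 of their estimate.

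Promoter sequence was matched by symbol in RefSeq (build GRCm38.p6), and 2 of the 7 genes matched, Ass1 and Odc1. Both rose, and the 250 bases before their start sites are shown to let the 2 be compared. Capitals mark E-boxes (CACGTG, the element bound by Myc and related factors) and GC boxes (GGGCGG or its reverse complement, bound by Sp1). The Ass1 sequence is chr2:31470020-31470269 and the Odc1 sequence chr12:17544623-17544872, both on the plus strand, 5′ to 3′.
Ass1: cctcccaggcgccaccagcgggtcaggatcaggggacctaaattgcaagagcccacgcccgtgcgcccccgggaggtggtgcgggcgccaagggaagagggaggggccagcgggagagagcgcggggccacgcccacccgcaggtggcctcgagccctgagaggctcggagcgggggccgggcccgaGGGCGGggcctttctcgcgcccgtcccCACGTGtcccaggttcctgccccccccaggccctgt
Odc1: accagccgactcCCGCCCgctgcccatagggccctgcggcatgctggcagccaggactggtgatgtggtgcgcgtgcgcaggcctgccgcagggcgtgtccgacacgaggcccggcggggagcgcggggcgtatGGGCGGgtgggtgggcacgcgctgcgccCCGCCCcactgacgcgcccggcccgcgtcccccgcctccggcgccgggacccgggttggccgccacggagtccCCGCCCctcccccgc

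The Ass1 window held 1 E-box, which begins at position -36 from the start site, and 1 GC box at -63. The Odc1 window held 4 GC boxes, at -238, -116, -88 and -15, and no E-box. Of 32851 promoter windows of the same length in the RefSeq table, searched on both strands, 6.02% held the E-box letters and 32.7% the GC box letters. Both windows were rich in G and C, at 75.6% for Ass1 and 80.0% for Odc1, against a median of 52.4% over all windows. The letters TATAA (TATA box, in 22.8% of windows) were in neither window. These matches describe the letters in the windows only.

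Ranked by level, Arg1 led in Sg-Con with a mean of 327 FPKM, followed by Odc1 (133), Arg2 (127), Asl (29.2), Ass1 (11.97), Slc7a2 (11.5) and Nos2 (6.87). The ranges of neighbours overlapped for Arg1 and Odc1, Odc1 and Arg2, Ass1 and Slc7a2, and Slc7a2 and Nos2. In Sg-C3 the order was Odc1 (284), Arg2 (180), Ass1 (59.3), Nos2 (32.6), Slc7a2 (27.2), Arg1 (25.4) and Asl (21.2). There the first 4 were separated from each other without overlap, and the ranges of each neighbouring pair from Nos2 to Asl overlapped.

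Nos2, Ass1 and Odc1 rose beside higher summed markers of several other cells. Summed neutrophil markers were 137 to 216 FPKM in Sg-Con and 377 to 1331 in Sg-C3, with 4 of 7 tested markers higher and none lower. Ly6g, Elane and Camp were at 0 in at least 1 library. Most of the neutrophil sum was S100a8 and S100a9, at 393 and 734 FPKM in Sg-C3 replicate 1. Mmp8 was the tested marker with a lower mean in Sg-C3 (9.50 ± 6.37 against 19.0 ± 5.85 FPKM), with overlapping groups. Sg-C3 replicate 1 had the highest neutrophil marker sum and also the highest Nos2 and Odc1, but the lowest Ass1 of its group. Without it the log2 fold changes were 1.99 for Nos2, 0.99 for Odc1 and 2.37 for Ass1. The Sg-C3 libraries then left had neutrophil sums of 697 and 377 FPKM, still above every Sg-Con library.

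Dendritic cell markers summed to 11.9 to 15.9 FPKM in Sg-Con and 36.3 to 65.3 in Sg-C3. Of 3 tested markers 2 were higher, Ccr7 and Xcr1, and 5 of the 10 were below 1 FPKM in every library. Ccr7 made up most of this sum in Sg-C3 (32.8 ± 12.4 FPKM, against 2.43 ± 0.986 in Sg-Con). Fscn1, also tested, was at 7.59 ± 1.11 FPKM in Sg-Con and 7.62 ± 1.16 in Sg-C3, and the groups of Zbtb46 and Cd209a overlapped. NK cell markers summed to 0.8 to 1.74 and 17.4 to 27.5 FPKM, and Ncr1, Prf1 and Nkg7 were at 0 in at least 1 library. All 4 tested NK cell markers were higher, but each was below 1 FPKM in every Sg-Con library. They passed the filter only through Sg-C3, so nothing is drawn from that count. With no filter on low values, 7 of the 8 were called higher. T cell markers summed to 2.52 to 6.06 and 16.1 to 23.1 FPKM, and most of the Sg-C3 sum was Cd4 (12.8 ± 3.67 FPKM). The 2 tested, Cd4 and Cd3g, were higher, but Cd3g too passed the filter only through Sg-C3. With no filter 5 of the 8 were called higher, and the groups of Cd3e, Cd247 and Cd5 overlapped. Fibroblast markers summed to 59.3 to 80.2 and 140 to 202 FPKM, with 3 of 6 tested higher and 1 lower. Dcn made up most of this sum in Sg-C3 (114 ± 25.5 FPKM, against 21.9 ± 5.96 in Sg-Con), and the groups of Col1a1, Lum and Pdgfra overlapped. Endothelial markers summed to 9.74 to 18.04 and 60.2 to 79.1 FPKM, with 1 of 3 higher, Pecam1, and 1 lower, Cdh5. Pecam1 made up most of the endothelial sum in Sg-C3 (61.25 ± 11.7 FPKM, against 8.99 ± 4.06 in Sg-Con), and the groups of Kdr, Vwf and Emcn overlapped. B cell markers summed to 1.76 to 4.62 and 4.72 to 6.91 FPKM with none called, and mast cell and basophil markers to 4.63 to 16.02 and 54.2 to 106 FPKM, most of it Hdc. Of the 11 macrophage markers 4 were lower and 1 higher, and their sum was 14770 to 16195 FPKM in Sg-Con and 8847 to 11394 in Sg-C3. Lyz2 was the highest of these markers and fell from 7711.9 ± 915 to 3378.5 ± 579 FPKM. Adgre1, Fcgr1, C1qa, C1qb and C1qc had overlapping groups and were not called. Among all tested genes 31.7% were lower and 12.7% higher. The part of these cell types in the rises of Nos2, Ass1, Odc1 and Arg2 was not tested.

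The other genes around this pathway were taken from 7 lists of 81 further genes, of which 75 were in the table and 67 passed the filter. Of these 67, 10 were higher and 26 lower, or 14.9% and 38.8%, against 12.7% and 31.7% of all tested genes, and their median log2 fold change was -0.22 against -0.16. After median-ratio scaling 13 were higher and 16 lower, against 18.6% and 19.1% of all tested genes. The lower count was 14 when any single one of replicates 1 and 2 of either group was left out. Pooled, the shares of the surrounding genes were near those of all tested genes, but the lists differed. Without the regulators of Arg1 and Nos2, 3 of 51 tested genes were higher and 21 lower, or 5.88% and 41.2%. After median-ratio scaling 5 of these 51 were higher and 13 lower. Gchfr and Azin2, both among the lower genes, passed the filter only through Sg-Con and could be counted only as lower. Of the 16 regulators 43.8% were higher.

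Transporters of arginine and ornithine had 1 of 6 tested genes higher and 2 lower, or 16.7% and 33.3%. These shares were near the 12.7% and 31.7% of all tested genes. Slc7a7, whose product exports cationic amino acids, fell from 59.5 ± 9.81 to 37.5 ± 4.76 FPKM (log2 fold change -0.65 with SE 0.15, adjusted p = 0.0124 by limma). Slc25a15, the mitochondrial ornithine carrier, fell from 2.84 ± 0.307 to 1.39 ± 0.307 FPKM (-0.69, adjusted p = 0.00816). Slc3a2, the heavy chain that Slc7a7 pairs with, rose from 192 ± 13.9 to 236 ± 13.3 FPKM (0.30, adjusted p = 0.0333, and 0.47 after median-ratio scaling). Its call was lost with the title style as a covariate (adjusted p = 0.0661) and when any single one of replicates 1 and 2 of either group was left out (0.0682 to 0.114). Slc7a1, the constitutive transporter CAT1, named after its values were seen, was at 13.9 ± 2.25 and 14.01 ± 1.47 FPKM (log2 fold change 0.02, adjusted p = 0.911).

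Nitric oxide synthases need the cofactor tetrahydrobiopterin, and the list for this cofactor and for the control of these enzymes had, besides Nos2, 6 of 9 tested genes lower and none higher. That is 66.7% lower and 0% higher, against 31.7% and 12.7% of all tested genes. Spr, sepiapterin reductase, which makes the cofactor, fell from 28.6 ± 2.92 to 14.8 ± 1.82 FPKM (log2 fold change -0.91 with SE 0.12, adjusted p = 0.00272 by limma). Gchfr, whose product restrains the first enzyme of cofactor synthesis, fell from 2.15 ± 0.499 to 0.577 ± 0.297 FPKM (-1.003, adjusted p = 0.00639). At this low level the added 1 FPKM sets the size, and with 0.1 added instead the log2 fold change of Gchfr was -1.82. Ddah2, a gene of the family that breaks down methylated arginines, fell from 5.23 ± 1.72 to 1.49 ± 0.475 FPKM (-1.30, adjusted p = 0.00674). These 3 were called in each alternative in which they were tested. Gchfr, however, was below 1 FPKM in every Sg-C3 library and passed the filter only through Sg-Con. It could therefore be counted only as a lower gene, so the shares of this list are not read as a result. Gchfr was not tested when a Sg-Con library was left out. The list's count of lower genes was 3 after median-ratio scaling, with 1 gene higher, and 3 after quantile normalization. It was between 2 and 6 when each library was left out. Those 3 genes are 33.3% of the list, against 19.1% and 22.0% of all tested genes under these scalings. Gch1, the first enzyme of cofactor synthesis, named after its values were seen, was at 30.1 ± 4.99 and 33.9 ± 4.14 FPKM (log2 fold change 0.17, adjusted p = 0.361).

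Beyond Odc1, polyamine genes had 1 of 18 tested members higher and 6 lower, or 5.56% and 33.3%, against 12.7% and 31.7% of all tested genes, so the share of lower genes was near that of all genes. Smox, spermine oxidase, which turns spermine back into spermidine, was at 94.39, 76.5 and 82.08 FPKM in Sg-Con and at 243.61, 243.06 and 209.38 FPKM in Sg-C3. The groups were tight and far apart, as for Odc1. Smox rose 2.75-fold (log2 fold change 1.45 with SE 0.11, adjusted p = 8.81e-04 by limma). Srm, spermidine synthase, which acts after Odc1, fell from 24.2 ± 2.96 to 16.2 ± 1.48 FPKM (-0.54, adjusted p = 0.0118). Azin2, an activator of ornithine decarboxylase, fell from 1.997 ± 0.308 to 0.500 ± 0.0819 FPKM (-0.99, adjusted p = 0.00223, and -1.80 with 0.1 added in place of 1). Azin2 was below 1 FPKM in every Sg-C3 library and passed the filter only through Sg-Con. It could therefore be counted only as a lower gene, and nothing is drawn from its place in the count. Azin2 was not tested when a Sg-Con library was left out. The count of lower polyamine genes was 3 after median-ratio scaling, with 2 higher, and 1 to 5 when each library was left out, 1 without Sg-Con replicate 2.

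The route from ornithine to proline had 1 of 6 tested genes lower (16.7%, against 31.7% of all tested genes). This was Pycrl, a pyrroline-5-carboxylate reductase gene, at 7.28 ± 0.805 FPKM in Sg-Con and 4.56 ± 0.653 in Sg-C3 (log2 fold change -0.58 with SE 0.13, adjusted p = 0.0124 by limma). Aldh18a1, which starts proline synthesis from glutamate, and Aldh4a1 did not pass (log2 fold changes -0.50 and -0.28, adjusted p = 0.0607 and 0.145). Among other uses of arginine 6 of 12 tested genes fell and 1 rose, while 31.7% and 12.7% of all tested genes did. Gamt, which makes creatine from an arginine-derived precursor, fell from 11.2 ± 1.11 to 4.84 ± 1.05 FPKM (-1.07, adjusted p = 0.00297). Slc6a8, the creatine transporter, fell from 31.3 ± 6.10 to 12.97 ± 2.27 FPKM (-1.21, adjusted p = 0.00342). Gatm, which uses arginine in the first step of creatine synthesis and is named after its values were seen, was at 155 ± 43.9 and 138 ± 26.4 FPKM (-0.14, adjusted p = 0.636). Gatsl2 (Castor2), a relative of the cytosolic arginine sensor gene Castor1, fell from 4.84 ± 0.438 to 2.79 ± 0.185 FPKM (-0.62, adjusted p = 0.00555). The gene of the sensor itself, listed as Gatsl3 (Castor1) and named after its values were seen, was the list's higher gene and rose from 4.26 ± 0.453 to 7.05 ± 0.606 FPKM (0.61, adjusted p = 0.00666).

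**Figure D4:**
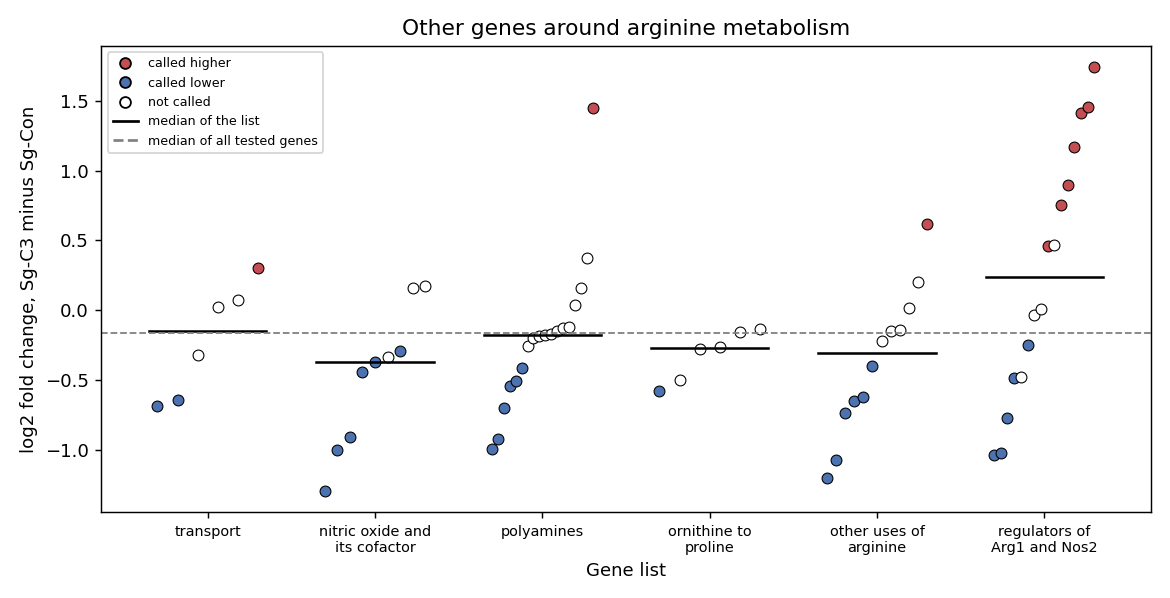
log2 fold changes (Sg-C3 minus Sg-Con) of the tested genes in 6 lists around arginine metabolism, the 7 genes left out, coloured where called, with a line at each list's median and a dashed line at the median of all tested genes, -0.16. The regulators have the highest median, 0.24, and the genes for nitric oxide and its cofactor the lowest, -0.37.

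Genes of factors and receptors known to control Arg1 or Nos2 had 7 of 16 members higher and 5 lower, or 43.8% and 31.2%. Over all tested genes these shares were 12.7% and 31.7%, so the share of lower genes was near that of all genes. The median log2 fold change of the list was 0.24. Members that act downstream of interferon gamma or on Nos2 were among the higher ones. Irf1 rose from 81.8 ± 3.60 to 153 ± 5.98 FPKM (log2 fold change 0.90 with SE 0.08, adjusted p = 0.00115 by limma), and Batf2 from 4.55 ± 1.24 to 17.3 ± 2.47 FPKM (1.74, adjusted p = 0.00171). Nfkb1, an NF-kB subunit gene, rose from 89.5 ± 25.3 to 197 ± 11.6 FPKM (1.17, adjusted p = 0.00409), and Stat3, which responds to Il6 and Il10, from 62.6 ± 5.59 to 106 ± 11.1 FPKM (0.75, adjusted p = 0.00354). The chains of the interferon gamma receptor were not among the higher ones: Ifngr1, named after its values were seen, fell from 60.3 ± 10.9 to 34.9 ± 6.001 FPKM (-0.77, adjusted p = 0.0108).

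Genes linked to Arg1 went both ways. Pparg, a nuclear receptor gene of alternative activation, rose from 2.99 ± 1.76 to 9.16 ± 2.03 FPKM (log2 fold change 1.45, limma adjusted p = 0.0179, but 0.054 without Sg-C3 replicate 1). Klf4 fell from 131 ± 32.1 to 65.2 ± 22.5 FPKM (-1.02, adjusted p = 0.0187), a call lost with Sg-Con replicate 2 left out (0.0535) and with Sg-C3 replicate 1 (0.0617) or replicate 2 (0.0606) left out. Epas1, which encodes the hypoxia factor HIF-2 alpha, fell from 5.34 ± 2.37 to 1.97 ± 0.413 FPKM (-1.04, adjusted p = 0.0182), a call lost with Sg-C3 replicate 1 (0.0504) or replicate 2 (0.0681) left out. Stat6 and Il4ra, the factor and receptor gene of interleukin 4 signalling, named after their values were seen, had log2 fold changes of -0.49 (adjusted p = 0.0195) and -0.03 (adjusted p = 0.854). The count of lower regulators was 3 after median-ratio scaling, and 1 with either of the Sg-C3 replicates 1 and 2 left out.

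The genes whose pattern was most like that of Arg1 over the 6 libraries were Chil3, Cd163, F13a1, Krt20 and Fcna, out of 10665 genes compared. Likeness was the root mean square difference between log2(FPKM + 1) profiles, each centred on its own mean, and it ran from 0.50 for Chil3 to 0.66 for Fcna. Chil3 was at 29.01, 98.39 and 53.49 FPKM in Sg-Con and at 8.51, 2.38 and 10.59 FPKM in Sg-C3. As for Arg1, Sg-Con replicate 2 was the highest library and Sg-C3 replicate 2 the lowest, and the same held for the other 4. The genes were picked for likeness over these same libraries, so this shared pattern is partly built in and nothing is drawn from it. Chil3 codes for a chitinase-like protein of alternatively activated macrophages, Cd163 for a haemoglobin scavenger receptor and Krt20 for an epithelial keratin. For Nos2 the closest were Ifitm1, Htra4, Stra6l, AW112010 and AW011738, with differences of 0.32 to 0.43. Ifitm1, an interferon-induced membrane protein gene, was at 91.05, 102.93 and 60.94 FPKM in Sg-Con and at 537.57, 435.05 and 325.27 FPKM in Sg-C3. The groups differed in all 10 genes, so each likeness includes that difference.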

How the data were processed

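The deposited table holds 1 FPKM value per gene and library, rounded to 2 decimals by the authors, with the unit named per the file headers. Bowtie 0.12.2 and the build mm8 are listed per the submitters' processing notes, and the FPKM tool was not given in the sources used here. Depth was estimated from whole-read steps in the values of short non-coding genes. Of values up to 8 reads, 88.7% to 93.4% were whole within 0.1 read, against 20% by chance at a depth fixed beforehand. The depth taken for each library was the one that made this share largest, so 20% is too low a level to compare with. The estimate took 36 bases off each gene length (with none taken off, 27.2% to 33.1% were whole), so the depths are estimates. Of the identifiers, 15440 were found in RefSeq, and 23 symbols turned into dates were restored from them.

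A gene was tested when 3 or more libraries reached 1 FPKM. The test was limma 3.58.1 (eBayes with trend, R 4.3.3) applied to log2(FPKM + 1). Tables, permutation tests and figures used scipy 1.17.1, pandas 2.3.3, matplotlib 3.10.9 and numpy 2.4.6 under Python 3.11.15. On 10 simulated sets of 11198 genes with 200 changed, 75.6% of 2-fold and 95.9% of 4-fold changes were found, and 3.79% of calls were false. These sets had far fewer changed genes than the 44.4% called in the data. Their noise was drawn separately for each gene, with no shift common to a library. The rates therefore need not hold for the data themselves. Ratios used exact permutation tests over libraries.

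The 7 genes, the gene lists and the tests were chosen with earlier results of these data known. The text names the 7 genes and, from each list, the 3 smallest p values and any called gene with a fold change of at least 1 on the log2 scale. For the likeness of pattern it names 5 genes each for Arg1 and Nos2, without predicted genes. The motifs were chosen after seeing the data. One gene that this rule covers and one motif that was searched are not reported here.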

Additional observations from a re-analysis of the deposited data

How the results depend on the processing

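Over 15 alternatives (pseudocount 0.1, no filter, a mean of at least 5 FPKM, array weights, median-ratio scaling, a robust variance prior, quantile normalization, title style as a covariate, a threshold of 0.1 and each library left out), none of the 7 genes changed direction, and the calls of Arg1, Nos2, Ass1, Asl and Odc1 held in all 15. The call of Arg2 was lost in 3 and Slc7a2 gained one in 3. The counts of members ran from 3 to 5 higher when each library was left out, with 2 lower each time. All genes called numbered 4972, and 2780 to 5062 when each library was left out. Lower calls among the surrounding pathway genes numbered 26, against 16 after median-ratio scaling and 14 to 27 when each library was left out, and higher calls 7 to 10. The median of all tested genes was -0.16 as deposited and -0.02 after median-ratio scaling. The log2 Arg1 to Nos2 ratio differed by -5.83 with 1 added to each value and by -6.18 after quantile normalization, and the Arg2 share by 44.3 to 58.6 points when each library was left out. Median-ratio scaling leaves ratios within a library as they are. No paired analysis was possible because the labels give the groups no shared replicate numbers. With 3 libraries a group, the permutation tests could not go below 0.10.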
